A study of Mus musculus with 2 samples.

Results

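Chromatin accessibility at the thrombospondin genes Thbs1, Thbs2, Thbs3 and Thbs4 was examined in an ATAC-seq peak table from mouse cardiac fibroblasts. A row belonged to the family when the table gave it one of these gene symbols, or when it was intergenic and the table placed it nearest to the start site of one of them. By that rule 24 of 63316 peaks were taken, 4 for Thbs1, 17 for Thbs2, 1 for Thbs3 and 2 for Thbs4. Of these, 9 carried the symbol and 15 were intergenic. Peaks were chosen by symbol and position, but the family was picked with the siPiezo2 over SCR density ratios of these libraries already known, so all ratios below are a description and none was tested.

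ATAC-seq uses the Tn5 transposase to cut and tag open DNA, so that the reads over a region follow how open it is. Primary cardiac fibroblasts from mouse heart received TGF-β, at 5 ng/ml for 24 h by the study's legend, after a scrambled siRNA (SCR) or an siRNA against the mechanosensitive channel gene Piezo2 (siPiezo2). Each condition had 1 library, so no difference could be set against a spread between replicates. Both libraries came from TGF-β-treated cells, no untreated library was analysed here, and the labels give neither the strain nor the age of the mice. An siRNA acts on RNA, so accessibility at the targeted gene does not check the label. The design text of the series names a Cre-driven deletion of Tet3 in place of an siRNA, and the paper's methods start from minced tissue with a different kit from that in the labels. The groups here follow the labels.

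Thrombospondins are secreted, calcium-binding glycoproteins of the matricellular kind, which act on cells and on growth factors in the matrix more than they build it. Thbs1 and Thbs2 encode the trimeric members, which carry type 1 repeats, while Thbs3, Thbs4 and the cartilage gene Comp encode pentameric members without them. Thbs1 can release active TGF-β from its latent complex and is itself a TGF-β-induced gene. Thbs2 is known for its part in collagen fibril assembly and in restraining vessel growth, and Thbs4 for its induction in the stressed heart.

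Reads summed over the windows of 2000 bp around peak summits came to 4615335 in SCR and 2754046 in siPiezo2, with a median of 58 and 36 per peak, and reads in overlapping windows count more than once in these sums. Values are normalized densities, which are reads per kb of window after the authors' scaling, and the log2 ratio is that of siPiezo2 over SCR after adding 1 to each density. Intervals are 95% exact binomial (Clopper-Pearson) intervals from the reads and cover counting error only. At peaks called in both libraries the variance between the libraries was 2.15 times that of counting error. The median log2 ratio was -0.13 over all peaks, with quartiles of -0.41 and 0.12. Of the 8 fibroblast markers, 6 had a peak within 1 kb of a start site, with densities of 28.8 to 70.5 in SCR and 34.8 to 53.8 in siPiezo2. Such a peak was present for 1 of 6 cardiomyocyte, 1 of 5 endothelial and 0 of 5 leukocyte markers, and for 4 of 5 smooth muscle and pericyte markers. The last had a median of 42.5 in SCR and 37.9 in siPiezo2. Among them Pdgfrb was at 75.3 and 51.9, Myh11 at 32.6 and 23.9, Smtn at 52.4 and 54.5 and Cnn1 at 20.9 and 21.5. The fibroblast median was 43.0 in SCR and 44.2 in siPiezo2, over markers that differed in both directions. Col1a1 was at 70.5 and 53.8, Col1a2 at 45.9 and 34.8 and Ddr2 at 39.0 and 35.2. Tcf21 was at 45.05 and 44.03, Pdgfra at 40.9 and 44.5 and Dcn at 28.75 and 44.45. The part of these differences in the results was not tested. In these bulk libraries a smaller share of cells with an open site and a less open site in every cell cannot be told apart.

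Of the 24 thrombospondin peaks, 4 were lower in siPiezo2 past 1.5-fold (a ratio below 0.66 after adding 1 to each density), which is 16.7% beside 13.5% of all peaks. A single peak was higher past 1.5-fold (such a ratio above 1.5), beside 3.21% of all peaks. Without the added 1, 6 of the 24 were below 0.66, beside 14.9% of all peaks. Folds are given without it. Of the 4 lower peaks, 3 lay next to each other just beyond the end of Thbs1, and without them 1 of the other 21 peaks was lower, or 4.76%. The log2 ratio was below 0 at 18 peaks and above 0 at 6, with a median of -0.22, beside -0.13 over all peaks. The interval lay below 0 at 4 peaks, above 0 at 1 and included 0 at 19. Of those 4, 3 were the peaks just beyond the end of Thbs1. The shares of all peaks on each side of 0, or with such intervals, were not counted, so these counts have no background beside them. By calling, 8 peaks were called in both libraries, 16 in SCR only and 0 in siPiezo2 only, while of all peaks 21398 were called in both, 40553 in SCR only and 1365 in siPiezo2 only.

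**Figure D1:**
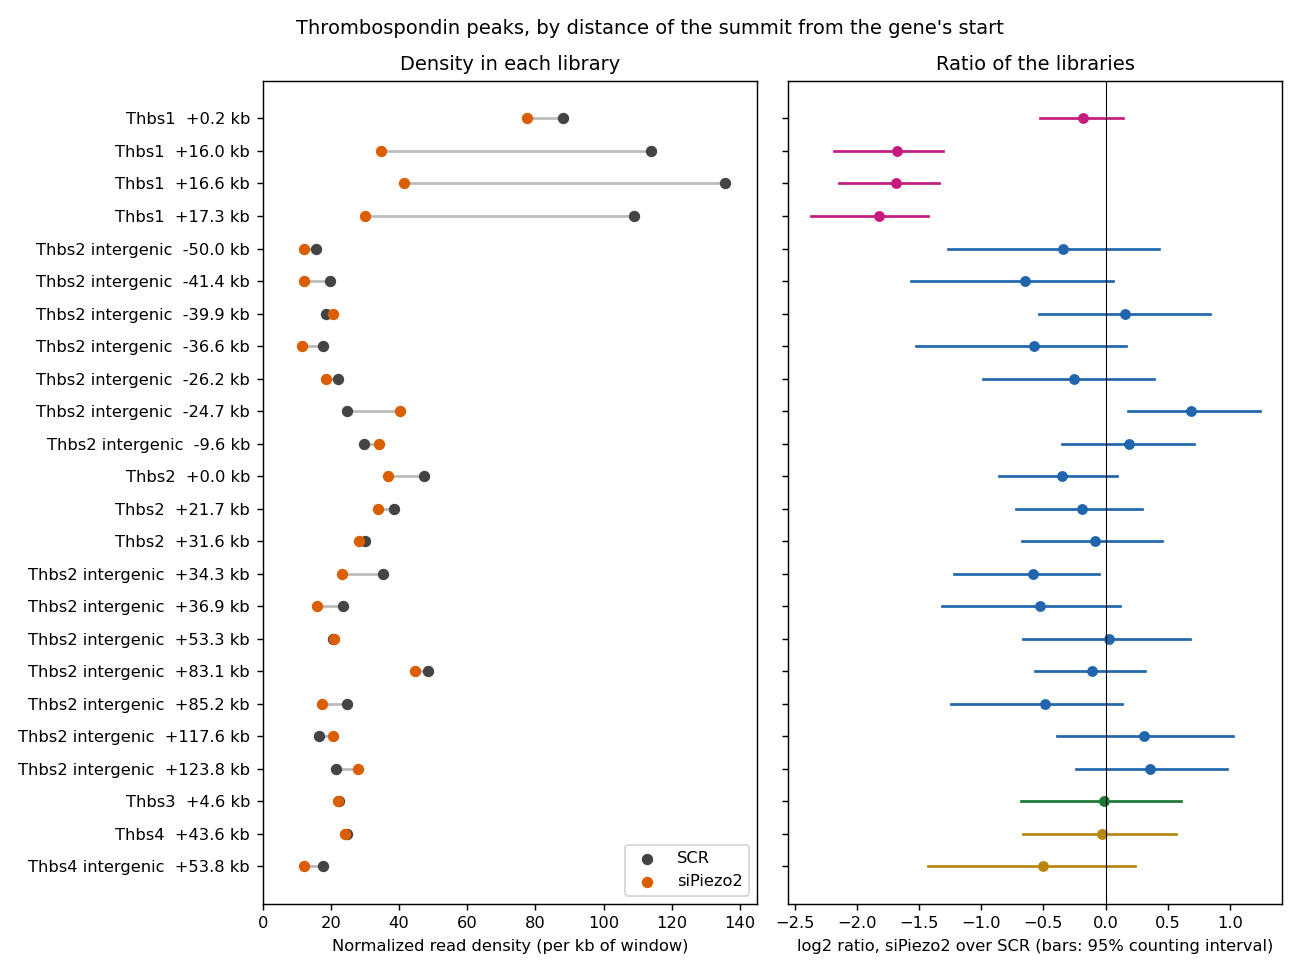
Normalized density (reads per kb of window) of the 24 thrombospondin peaks in SCR and siPiezo2 (left) and their log2 ratio with its 95% counting interval (right), ordered by gene and by the distance of the summit from the gene's start in kb. The 3 Thbs1 peaks 16.0 to 17.3 kb from the start had densities of 109 to 136 in SCR and 30 to 41.4 in siPiezo2, while most of the other intervals include 0.

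Summed over its 4 peaks, Thbs1 (ENSMUSG00000040152, chromosome 2, 117942357 to 117957614, plus strand) had a density of 447 in SCR and 184 in siPiezo2. The siPiezo2 sum was 2.43-fold lower, a log2 ratio of -1.28 (-1.49 to -1.11), on 1179 and 272 reads. Among the 16934 genes with peaks, of which 6.21% were lower and 1.54% higher past 1.5-fold by summed density, 0.171% had a lower log2 ratio than Thbs1. Several of its windows overlap and count some reads more than once, so the interval of the sum is too narrow.

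The peaks of Thbs1 differed from each other. The peak over its start site (117942197 to 117942833, in the 5′ UTR, called in both libraries) had a density of 88.0 in SCR and 77.4 in siPiezo2. Its log2 ratio was -0.18 (-0.53 to 0.14), an interval that includes 0, on 236 and 114 reads. Under 4 other scalings it was between -0.30 and -0.04. In SCR this peak was denser than 98.9% of all peaks, and in siPiezo2 denser than 97.9%. The start of Thbs1 was therefore among the most open sites of both libraries.

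The other 3 peaks lay beyond the last base of Thbs1 and were called in SCR only. The nearest (117958055 to 117958755, 441 to 1141 bp beyond the end) had a density of 114 in SCR and 34.9 in siPiezo2, with 299 and 52 reads. It was 3.27-fold lower, a log2 ratio of -1.68 (-2.19 to -1.30). The middle peak (117958849 to 117959082, 1235 to 1468 bp beyond the end) had a density of 136 in SCR and 41.4 in siPiezo2, with 361 and 61 reads and a log2 ratio of -1.69 (-2.15 to -1.34). All 4 Thbs1 peaks were denser in SCR than in siPiezo2, but these were lower by far more than the peak at the start. The farthest (117959345 to 117959915, 1731 to 2301 bp beyond the end) had a density of 109 in SCR and 30 in siPiezo2, with 283 and 45 reads. It was 3.63-fold lower, a log2 ratio of -1.83 (-2.37 to -1.43). The summits were 560 and 665 bp apart, so the windows of 2000 bp overlap and these peaks are not separate measurements.

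The balance between the gene's end and its start turned over between the libraries. In SCR the downstream peaks were 1.30, 1.54 and 1.24 times as dense as the peak at the start, from the nearest to the farthest. In siPiezo2 they were 0.450, 0.535 and 0.387 times as dense. The same ratios on unscaled reads, in which the scaling between libraries drops out, were 1.27, 1.53 and 1.20 in SCR and 0.456, 0.535 and 0.395 in siPiezo2. In SCR each downstream peak stood above the start, and in siPiezo2 each stood below it.

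Few peaks in the strongest 25% were as low, by a limit taken from the Thbs1 values after they were seen. Of these 15841 peaks, 14 had a log2 ratio at or below that of the downstream Thbs1 peak lowered least, the 3 Thbs1 peaks included. The 3 Thbs1 peaks were not called in siPiezo2, but reads remained there. Their siPiezo2 densities were above those of 72.0% to 86.4% of all peaks. Of the peaks called in siPiezo2, 67.3% had a lower siPiezo2 density than the densest of the 3. The missing call is therefore not an absence of signal. The table names Thbs1 as their gene but measures their distance to a start site of another gene, ENSMUSG00000101859, whose symbol the table does not give.

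The nearest peak on each side of Thbs1 showed no drop beyond counting error. The nearest upstream peak, in an intron of the predicted gene Gm13986 and 957 bp from the start of Thbs1, had a density of 84.3 in SCR against 89.3 in siPiezo2, for a log2 ratio of 0.08 (-0.24 to 0.39). Its window overlaps that of the peak at the Thbs1 start. The next peak downstream, in an intron of Fsip1 and 22752 bp beyond the end of Thbs1, had a density of 34.4 in SCR against 36.9 in siPiezo2, for a log2 ratio of 0.10 (-0.41 to 0.59). Both intervals include 0. Farther out some peaks were lower, such as one with its summit at -46856 bp from the start and a density of 30.6 in SCR against 18.7 in siPiezo2, for a log2 ratio of -0.68.

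**Figure D2:**
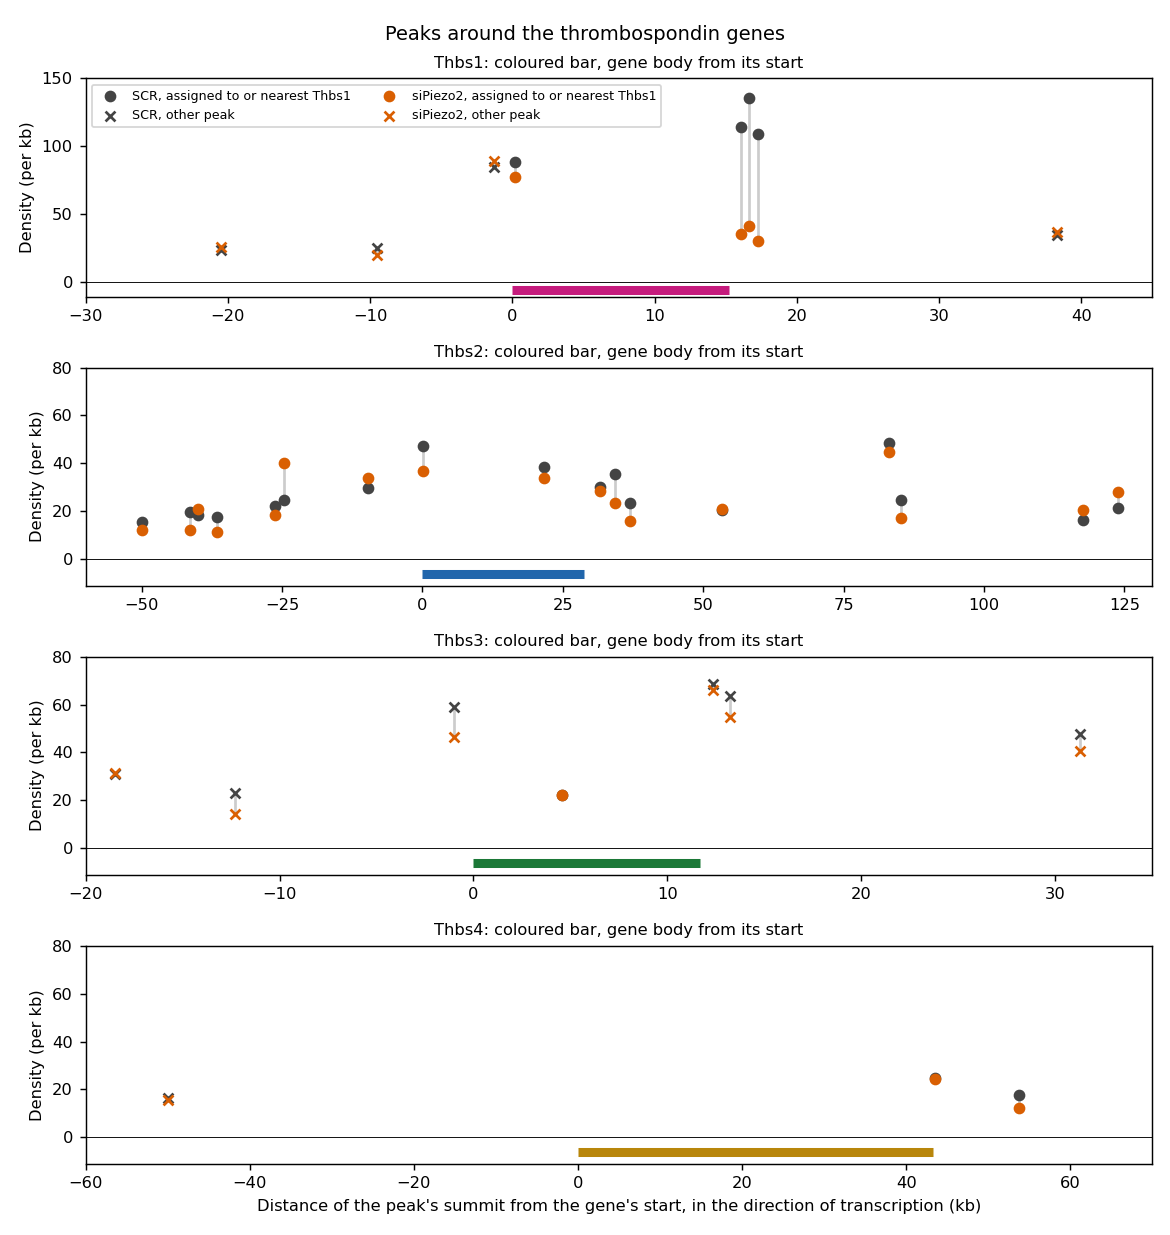
Normalized density (reads per kb of window) against the distance of each summit from the gene's start, in kb and in the direction of transcription, for SCR and siPiezo2 at the 4 genes. Circles are peaks of the named gene and crosses are other peaks, and the coloured bar is the gene body. At Thbs1 the libraries part at the 3 peaks just beyond the end of the gene. At Thbs2 the peaks spread over a wide region with differences in both directions, of which 1 higher and 1 lower were past 1.5-fold.

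Thbs2 (ENSMUSG00000023885, chromosome 17, 14885762 to 14914497, minus strand) had 3 peaks with its symbol, whose summed density was 116 in SCR against 98.9 in siPiezo2. The log2 ratio was -0.23 (-0.53 to 0.04), an interval that includes 0, and 32.5% of genes were lower. With the 14 intergenic peaks the sum was 455 in SCR against 419 in siPiezo2, for a log2 ratio of -0.12 (-0.27 to 0.01). By the rule Thbs2 was given more peaks than any other family member, and their sum differed between the libraries by less than its counting interval.

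The peak over the Thbs2 start (14914212 to 14914695, in the 5′ UTR, called in both) had a density of 47.3 in SCR against 36.8 in siPiezo2, for a log2 ratio of -0.35 (-0.86 to 0.09). A peak inside the gene (14892622 to 14893052), which the table classes as the promoter of a shorter transcript, had a density of 38.7 in SCR against 33.8 in siPiezo2, for a log2 ratio of -0.19 (-0.72 to 0.29). A peak 2723 to 3045 bp beyond the gene's end (14882717 to 14883039) had a density of 30.1 in SCR against 28.3 in siPiezo2, for a log2 ratio of -0.09 (-0.67 to 0.46), which turned above 0 under 3 of the 4 other scalings. All 3 intervals include 0, at the gene's end as well as at its start.

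The 14 intergenic peaks of Thbs2 had densities of 15.6 to 48.4 in SCR and 11.6 to 44.8 in siPiezo2, with 8 log2 ratios below 0, 6 above and a median of -0.18. Over all intergenic peaks that median was -0.17, with 16.6% lower and 4.09% higher. One of them was higher and one lower past 1.5-fold. The higher peak (14939024 to 14939357, 24.7 kb upstream of the start, called in both) had a density of 24.6 in SCR against 40.3 in siPiezo2, for a log2 ratio of 0.69 (0.18 to 1.24). It had more reads in the siPiezo2 library, 64 against 60, although that library was the shallower.

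The lower Thbs2 peak (14955813 to 14956041, 41.4 kb upstream) had a density of 19.8 in SCR and 12.2 in siPiezo2, on 45 and 20 reads, and its log2 ratio of -0.65 (-1.57 to 0.06) has an interval that includes 0. Under 4 other scalings it was at -0.57 to -0.40, no longer past 1.5-fold. Outside the limit through the added 1 alone, at a plain ratio of 0.659, was a peak 5379 bp beyond the gene's end (14879990 to 14880383), with a density of 35.4 in SCR and 23.3 in siPiezo2 and a log2 ratio of -0.58 (-1.22 to -0.05). Another (14951017 to 14951245, 36.6 kb upstream) had a density of 17.7 in SCR against 11.6 in siPiezo2, for a log2 ratio of -0.58 (-1.53 to 0.17) and a plain ratio of 0.652. Of these 3 peaks on both sides of the limit, the one beyond the gene's end had an interval that leaves out 0.

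The other intergenic peaks of Thbs2 all had intervals that include 0. Beyond the gene's end, the peak starting at 14790404 had a density of 21.5 in SCR and 27.9 in siPiezo2, and that at 14796707 had 16.5 and 20.7. The peak at 14829105 had 24.7 in SCR and 17.3 in siPiezo2, that at 14861042 had 20.5 and 20.9, and that at 14877472 had 23.6 and 16.0. These 5 differed in both directions, with log2 ratios of -0.53 to 0.36. Upstream of the start, the peak at 14923972 had 29.8 in SCR and 34.1 in siPiezo2, that at 14954230 had 18.5 and 20.8, and that at 14964370 had 15.6 and 12.1. Of these 3, the first 2 were above 0, at 0.19 and 0.16, and the last was at -0.34.

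By side of the gene, the 7 intergenic peaks beyond the end of Thbs2 had a median log2 ratio of -0.11 and none past 1.5-fold. Of these the densest (14831084 to 14831636) had a density of 48.4 in SCR and 44.8 in siPiezo2, close to the peak at the start in SCR. The 7 upstream peaks had a median of -0.25, and both peaks past 1.5-fold were among them. A neighbour of the higher peak with an overlapping window (14940484 to 14940856) had a density of 22.2 in SCR against 18.5 in siPiezo2, for a log2 ratio of -0.25 (-0.99 to 0.39).

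Thbs3 (ENSMUSG00000028047, chromosome 3, 89122487 to 89134144, plus strand) had 1 peak, in its intron 8 of 22 (89126930 to 89127167, called in SCR only). Its density was 22.5 in SCR against 22.2 in siPiezo2, for a log2 ratio of -0.01 (-0.68 to 0.61) on 53 and 36 reads, which turned above 0 under 4 other scalings (0.07 to 0.18). No peak covered the start of Thbs3. The nearest was a 5′ UTR peak of Mtx1, which encodes a mitochondrial outer membrane import protein, 617 bp upstream, with a density of 59.1 in SCR and 46.6 in siPiezo2 and a log2 ratio of -0.34 (-0.78 to 0.06). That Mtx1 peak had its summit at -993 bp from the Thbs3 start, so its window of 2000 bp only just takes in the start. Its density therefore describes mainly the region upstream, and openness at the Thbs3 start itself was not measured separately.

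Thbs4 (ENSMUSG00000021702, chromosome 13, 92888098 to 92931326, minus strand) had 1 peak with its symbol, 116 to 550 bp beyond its end (92887548 to 92887982, called in SCR only). Its density was 24.8 in SCR against 24.2 in siPiezo2, for a log2 ratio of -0.03 (-0.67 to 0.56), which turned above 0 under the 4 other scalings (0.05 to 0.14). An intergenic peak 10433 bp beyond the end (92877465 to 92877665, called in SCR only) had a density of 17.7 in SCR against 12.2 in siPiezo2, for a log2 ratio of -0.51 (-1.43 to 0.23) on 40 and 20 reads. The start of Thbs4 was 43344 bp from the nearest peak of the table. The intergenic peak was weak, denser than 21.4% of all peaks in SCR and 8.01% in siPiezo2. The peak with the symbol was of middling density, above 50.8% of all peaks in SCR and 57.4% in siPiezo2. Both intervals include 0.

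By SCR density per gene the order was Thbs1, Thbs2, Thbs4 and Thbs3, with the number of summed peaks differing between the first 2 and the others. Thbs4 and Thbs3 did not differ beyond counting error in either library's reads, at 59 and 53 in SCR and 39 and 36 in siPiezo2. Comp, the family member outside the rule, had 1 peak with a density of 38.8 in SCR against 31.9 in siPiezo2, for a log2 ratio of -0.28 (-0.82 to 0.21). Of the 5 genes of the family, Thbs1 was the one whose interval did not include 0.

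**Figure D3:**
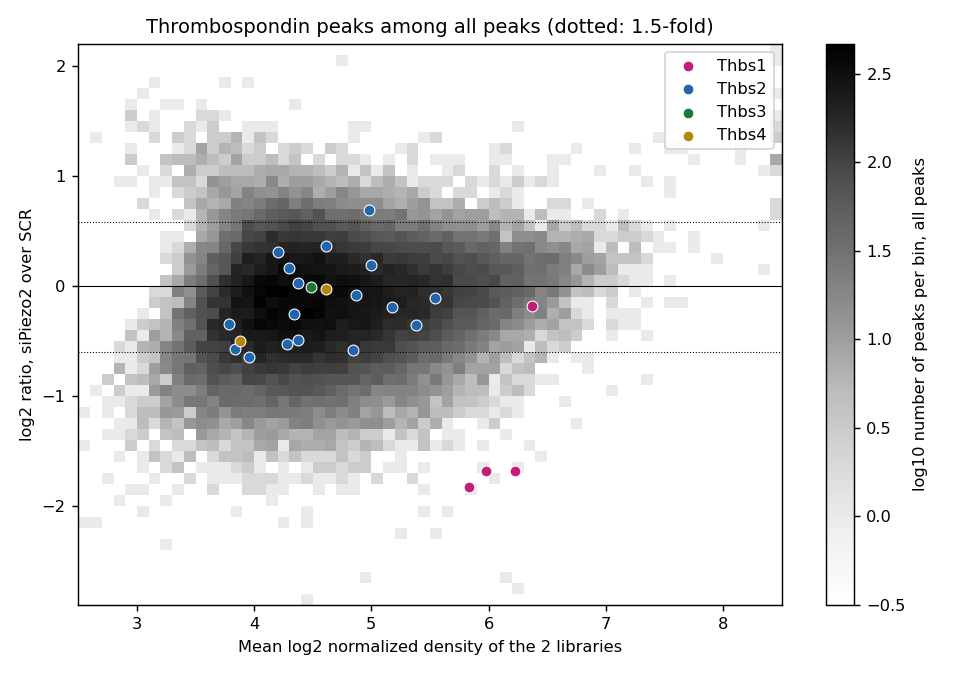
Log2 ratio of siPiezo2 over SCR against the mean log2 density of both libraries, with all 63316 peaks as grey bins (values beyond the axes are drawn at the edge) and the thrombospondin peaks as coloured points. Dotted lines mark 1.5-fold. The 3 downstream Thbs1 peaks sit at -1.83 to -1.68, where few peaks of like density lie. One Thbs2 peak lies above the upper dotted line at 0.69 and one just below the lower at -0.65, and the others lie between the lines.

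Promoter sequence was read for the genes that the RefSeq windows hold, from 250 bases before to 50 after the start in GRCm38.p6, another build than that of the peak coordinates. Thbs2, Thbs3 and Thbs4 matched and Thbs1 did not. Thbs2 and Thbs4 are shown because the start of one lay under a peak and that of the other far from any. Capitals mark matches on either strand to letters known from TEAD (GGAATG), AP-1 (TGANTCA), SMAD (CAGACA) or SRF (the CArG box) binding or to TATAAA.
Thbs2, chr17:14694213-14694512, minus strand: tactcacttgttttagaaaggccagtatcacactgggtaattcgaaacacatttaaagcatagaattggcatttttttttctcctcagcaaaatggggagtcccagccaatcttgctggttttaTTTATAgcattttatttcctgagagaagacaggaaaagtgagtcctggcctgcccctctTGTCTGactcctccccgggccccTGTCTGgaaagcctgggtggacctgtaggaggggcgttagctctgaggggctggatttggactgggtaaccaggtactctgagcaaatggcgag
Thbs4, chr13:92794769-92795068, minus strand: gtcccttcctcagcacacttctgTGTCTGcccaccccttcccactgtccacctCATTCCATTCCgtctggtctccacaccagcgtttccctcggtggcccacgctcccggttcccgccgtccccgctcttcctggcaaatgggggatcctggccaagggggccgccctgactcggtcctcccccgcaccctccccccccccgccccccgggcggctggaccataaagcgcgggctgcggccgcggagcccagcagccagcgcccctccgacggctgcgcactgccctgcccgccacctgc

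The Thbs2 window held 2 matches to the SMAD letters, at -67 to -62 and -44 to -39 from the start, and 1 to TATAAA at -126 to -121. The Thbs4 window held 2 matches to the TEAD letters that overlap by a base, at -197 to -192 and -192 to -187, and 1 to the SMAD letters at -227 to -222. The Thbs3 window (chr3:89214930-89215229, plus strand) held none of the motifs. Of 32851 such windows, 21.0% held the SMAD letters, 14.7% the TEAD letters, 13.6% TATAAA, 7.81% the AP-1 letters and 1.63% the CArG box. The windows also differed in base composition, with 4 CpG and 48.3% GC at Thbs2, 8 CpG and 59.0% GC at Thbs3 and 24 CpG and 72.0% GC at Thbs4, beside medians of 7 CpG and 52.7% GC. The CpG-rich window of Thbs4 was thus the one far from any peak.

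The genes through which thrombospondins act differed less than Thbs1. Of 19 receptors and binding partners, 18 had a peak. By summed density 1 of these was lower past 1.5-fold, which is 5.56% beside 6.21% of all genes, and 0 were higher, while their median log2 ratio was -0.18, beside -0.09 for all genes. Under the 4 other scalings 0 were lower, beside 2.89% to 4.22% of all genes, and the median was between -0.09 and 0.01. With the authors' fit the lower gene was Itga4, an integrin α subunit, with a density of 44.7 in SCR and 28.8 in siPiezo2 at its single peak, a log2 ratio of -0.62 (-1.19 to -0.14), followed by Itga6 at -0.37. The highest were Itgb2 at 0.24 and Calr, the calreticulin gene, at 0.10. Cd47, the receptor for the C-terminal domain of Thbs1, had 8 peaks summing to 216 in SCR against 207 in siPiezo2, for a log2 ratio of -0.06. Cd36, the receptor for the type 1 repeats, had no peak.

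Of 15 genes of the latent TGF-β system, on which Thbs1 acts, 14 had a peak. Summed over all peaks of a gene, 0 passed 1.5-fold in either direction, beside 6.21% of all genes lower and 1.54% higher. This holds for the sums and not for each single peak. The median was -0.08 and turned above 0 under 3 of 4 other scalings (up to 0.06). The lowest were the latent TGF-β binding protein gene Ltbp4 at -0.53, from a density of 225 in SCR to 155 in siPiezo2, and the ligand gene Tgfb2 at -0.33. The highest were the receptor gene Tgfbr1 at 0.29 and Ltbp3 at 0.27. Nrros, which tethers latent TGF-β on leukocytes, had no peak.

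Of 15 other matricellular genes, 14 had a peak. By summed density 4 of them (28.6%) were lower past 1.5-fold and 0 were higher, beside 6.21% and 1.54% of all genes, with a median of -0.45. Under the 4 other scalings the median was -0.31 to -0.40. There 1 gene was lower with median-of-ratios scaling, at the same total and with trimmed mean scaling, beside 3.40%, 4.22% and 3.38% of all genes, and 3 with recovered reads, beside 2.89%. Ccn1, a gene induced by growth factors and stretch, had a summed density of 308 in SCR against 165 in siPiezo2, for a log2 ratio of -0.90 (-1.13 to -0.71). Ccn5 was at -0.67, Ccn2, the connective tissue growth factor gene, at -0.65 and the tenascin gene Tnc at -0.60. Thbs1, at -1.28, was below each of these. The highest were Tnxb at 0.40 and Tgfbi at 0.10, and Spp1 had no peak.

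**Figure D4:**
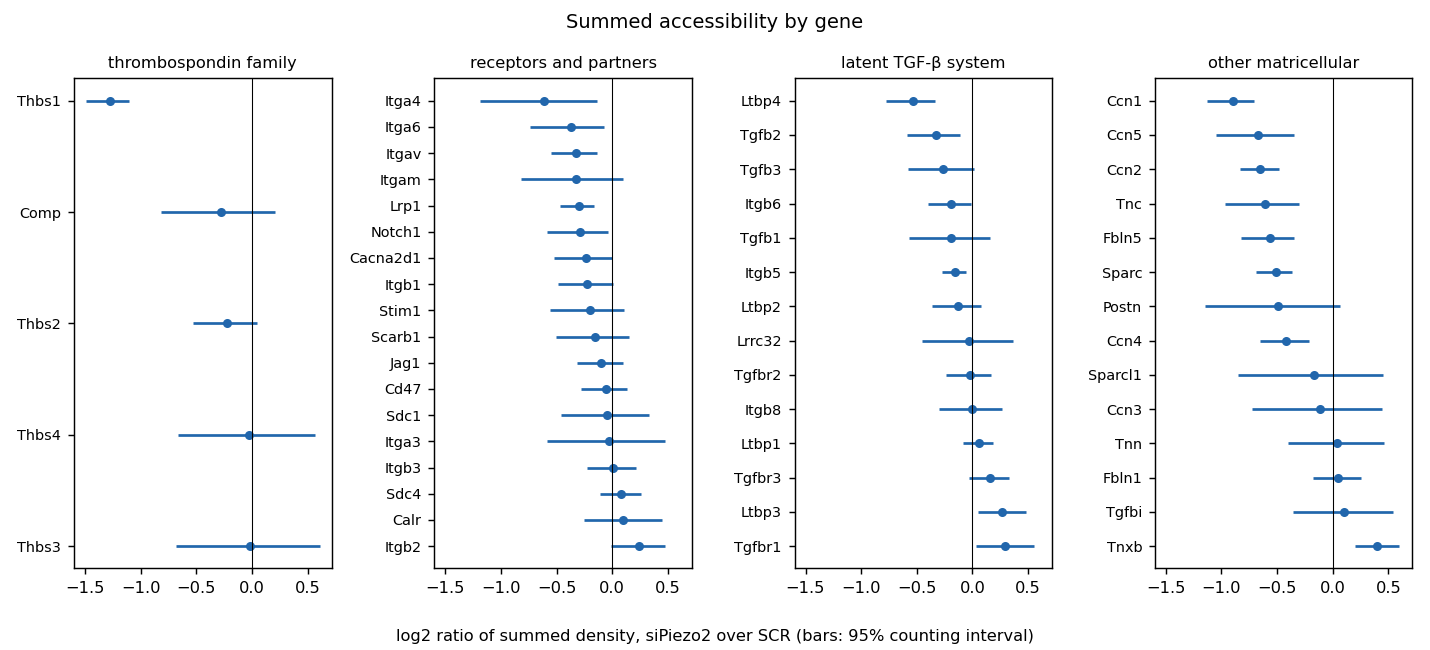
Log2 ratio of summed density, siPiezo2 over SCR, for the thrombospondin family and for 3 lists of related genes, with the lowest at the top and bars for the 95% counting interval. Thbs1 is at -1.28, while the receptors and partners spread from -0.62 to 0.24 and the other matricellular genes from -0.90 to 0.40.

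The genes most like each member were those with the same number of peaks and the nearest pair of log2 summed densities. For Thbs1, among 923 genes with 4 peaks, the nearest was Csf1 at a distance of 0.453 log2 units, with a sum of 344 in SCR and 220 in siPiezo2, then H3f3b at 0.596 and Tagln2 at 0.628. Their log2 ratios were -0.65 for Csf1, -0.67 for H3f3b and -0.39 for Tagln2, and since the ratio follows from the densities used for the match, these are a description. For Thbs2, among 1749 genes with 3 peaks, the nearest were Cdk5rap3, Mcm9 and Neurl1a, all within 0.0138. The single peaks of Thbs3 and Thbs4 had the same reads as those of 7 and 6 of the 8319 other genes with 1 peak, so likeness separates no gene there.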

How the data were processed

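ATAC-seq was analysed for 1 SCR and 1 siPiezo2 library of primary murine cardiac fibroblasts, grouped by their labels. The table deposited by the authors has 1 row for each peak, and its signal columns are read densities that the authors normalized by a linear fit of log2 ratio on mean log2 density. The authors' log2 and p-value columns (ratio, mean density and a p-value per peak) were not used. The submitters' processing notes name BWA 0.7.12 and mm10, whereas the table's gene positions and scaffolds match GRCm39. The genome in use here was GRCm38.p6, so no peak sequence was read, and positions are given as in the table.

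The log2 ratio was that of siPiezo2 over SCR density, each plus 1, for single peaks and for genes (densities summed over peaks with the gene's symbol). The reads in each window of 2000 bp were worked back from the densities (whole within 0.05 for 100% of peaks) and gave the 95% Clopper-Pearson intervals. They cover counting error only, and reads without molecular identifiers are not independent molecules. With 1 library per condition no test was made. All 24 family peaks were named, and related genes came from fixed lists. The members and lists were chosen with earlier results of these data known. Scaling, pseudocount (0.1), fold (2), peak strength, window overlap and the peaks summed were varied. Sums with intergenic peaks, and single Thbs1 peaks under other scalings, were added after seeing the data. Peaks of 1 further gene of the downstream class are not reported here. The read recovery and the intervals were tested on simulated data with counting error only. The simulation held neither the larger spread between these libraries nor reads shared by overlapping windows, so it does not cover them. Computation was in Python 3.11.15 with pandas 2.3.3, numpy 2.4.6 and scipy 1.17.1, and plots were drawn with matplotlib 3.10.9.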

Additional observations from a re-analysis of the deposited data

How the results depend on the processing

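The summed Thbs1 log2 ratio of -1.28 lay between -1.13 and -1.37 under 4 other scalings, and the 3 downstream peaks between -1.54 and -1.87. It was -1.69 with the strongest peak only and -1.68 with separate windows only, where the nearest downstream peak alone was left. It was -0.18 with peaks called in both libraries only, and -0.18 with peaks within 10 kb of a Thbs1 start site only, since the peak at the start alone was then left. With separate windows, 1 of 19 thrombospondin peaks was lower past 1.5-fold, which is 5.26% beside 13.3% of all such peaks. At a fold of 2, 0 peaks were higher (0.504% of all peaks). The other 49 values for the 4 genes and the peak counts, and 20 for single Thbs1 peaks, stayed within the counting interval or within 1.5 times the count. Under the 4 scalings the median over all genes moved from -0.09 to between -0.01 and 0.05. Lower peaks made up 80.8% of all peaks past 1.5-fold with the authors' fit, 57.2% with median-of-ratios scaling, 67.1% at the same total, 56.5% with trimmed mean scaling and 48.3% with recovered reads, and 3 thrombospondin peaks in place of 4 were then lower. Thbs3 and Thbs4 turned above 0 under each of the 4, up to 0.18 and 0.14. The receptor list's median turned above 0 with recovered reads only (0.01). The 36 and 39 reads of Thbs3 and Thbs4 in siPiezo2 leave their intervals wide, from -0.68 to 0.61 and from -0.67 to 0.56. No values could be had from the table's class of promoter peaks within 1 kb only, since it gives the peaks over the Thbs1 and Thbs2 starts the class 5′ UTR, nor for Thbs3 and Thbs4 without their strongest peak or from peaks called in both, nor for Thbs4 within 10 kb. No paired analysis was possible because each condition had 1 library.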

Other observations

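Peaks of the table's downstream class, which lie within a few kb beyond a gene's end, numbered 973, with a median log2 ratio of -0.14 and 16.2% lower past 1.5-fold. Peaks of this class at or below the log2 ratio of the Thbs1 downstream peak that was lowered least included 1 of Acta2, the smooth muscle actin gene, and 1 of Fn1, the fibronectin gene. The Acta2 peak had a density of 63.3 in SCR against 7.81 in siPiezo2, for a log2 ratio of -2.87. The Fn1 peak had a density of 53.3 in SCR against 15.4 in siPiezo2, for a log2 ratio of -1.73. Acta2 and Fn1, like Thbs1, are known TGF-β targets in fibroblasts. They were named after their values were seen, and no test was made.

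A peak near the start with little difference beside another peak that was far lower was also counted over the table, with limits set from the Thbs1 values after they were seen, so Thbs1 meets them by construction, and with the authors' fit only. Of 5441 genes with a peak within 1 kb of their start and another peak, 22 had another peak with a log2 ratio at or below -1.68. In 9 of these the start peak was within 0.18 of 0.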
